A study of Mus musculus with 6 samples.

Results

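The report describes 9 genes that mark resting microglia or macrophages, among the 40202 genes listed for BV2 cells. They were taken by name: Tmem119, Gpr34, Selplg, Fcrls and Olfml3, which belong to the signature of resting microglia, and Adgre1, Itgam, Cd52 and Aif1, which macrophages and other myeloid cells share. All 9 were listed, 8 had reads and passed the filter on low values (a mean of at least 10 normalised reads over all libraries), and Gpr34 was listed at 0. BV2 is a mouse microglial cell line, immortalised with a retrovirus that carries raf and myc oncogenes, of C57BL/6 background per the labels. The Control group holds 3 untreated samples, the FL-ApoE4 group 3 samples kept for 5 h with full-length human ApoE4 protein at 25 µg/ml, and total RNA of all 6 was sequenced. A vehicle for the Control group is not given in the sources used here. Nothing states that replicates were separate cultures, so the spread behind each p-value may be technical.

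Microglia are the macrophages of the brain parenchyma. In the brain they carry a set of transcripts that blood monocytes lack or hold at low levels, maintained by TGF-beta and other cues of the tissue, and much of this set is lost when microglia are grown in a dish. Pan-macrophage markers such as F4/80, CD11b and Iba1 do not depend on these cues in the same way and are used to stain microglia and macrophages alike. The comparison asks whether exposure to the intact apolipoprotein moved either kind of marker in a line that has been kept in culture.

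The 6 libraries held 45700128 to 54965393 reads assigned to genes. Control replicate 1 stood apart, with a chi-square per gene of 63.8 and 71.8 against control replicates 2 and 3, which differed from each other by 4.83. FL-ApoE4 replicate 1 differed from its group by 21.5 and 20, and FL-ApoE4 replicates 2 and 3 differed by 4.37. Each measured member is therefore given with all libraries and without control replicate 1. In a bulk sample, fewer cells that carry a transcript and less of it per cell cannot be told apart.

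Levels of the members in the untreated line spanned a wide range once divided by the length of the longest coding transcript (GENCODE M21), on a scale of normalised reads per kb. Adgre1, which encodes the adhesion receptor F4/80, stood highest at 6854 per kb in controls. Cd52, which encodes a very short glycoprotein anchored in the membrane of leukocytes, followed at 3746 per kb. Itgam, the CD11b chain of complement receptor 3, was at 1467 per kb and Selplg, which encodes the P-selectin ligand PSGL-1, at 1376. These neighbours in the order did not differ beyond their spread, with ranges over all libraries of 1201 to 1648 and 1235 to 1720. Aif1, which encodes the calcium-binding and actin-bundling protein Iba1 of the cytoplasm, was at 697 per kb, and Tmem119, a transmembrane protein used to tell microglia from other brain macrophages, at 187. Olfml3, a secreted olfactomedin-domain glycoprotein, and Fcrls, a mouse Fc receptor-like protein of microglia, were lowest at 28.9 and 22.9 per kb, and their ranges overlapped (25.8 to 37.1 and 17.4 to 30.2). All libraries together thus placed the macrophage markers Adgre1 and Cd52 above the microglia signature genes Tmem119, Olfml3 and Fcrls, with no overlap between any library of the former and any of the latter. The order did not follow the kind of marker throughout. Selplg, a signature gene, lay above the macrophage marker Aif1, which ranged from 623 to 857 per kb. Of other signature genes, Csf1r, Trem2 and Cst3 stood above Adgre1 in controls (10039, 16109 and 39970 per kb), while others such as Cx3cr1 stood below it.

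The upstream sequence of Itgam is shown because this gene is the textbook target of PU.1 (encoded by Spi1), the factor that defines the myeloid lineage, and because its fold change was the nearest to 1 of the measured members. The window covers the 250 bases before the gene's start in RefSeq (GRCm38.p6, chr7:128062390-128062639, plus strand), and capitals mark the purine-rich core GAGGAA or its reverse complement TTCCTC, searched on both strands. The build differs from the one named in the submitters' processing notes, so the sequence was taken by gene symbol.
Itgam: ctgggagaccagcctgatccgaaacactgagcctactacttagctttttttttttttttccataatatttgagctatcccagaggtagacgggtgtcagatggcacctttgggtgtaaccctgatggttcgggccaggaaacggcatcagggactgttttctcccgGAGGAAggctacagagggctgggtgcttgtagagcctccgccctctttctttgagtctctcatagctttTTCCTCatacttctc
A match begins 84 bases before the start on the gene's own strand, and a second begins 15 bases before it on the other strand. The upstream windows of Fcrls and Aif1 held 1 match each and that of Olfml3 held 0, among the 4 members with a window in the table. Of all 32851 windows of this length, 23.3% held at least 1 match, so a match is a description of these letters and not a binding site.

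**Figure D1:**
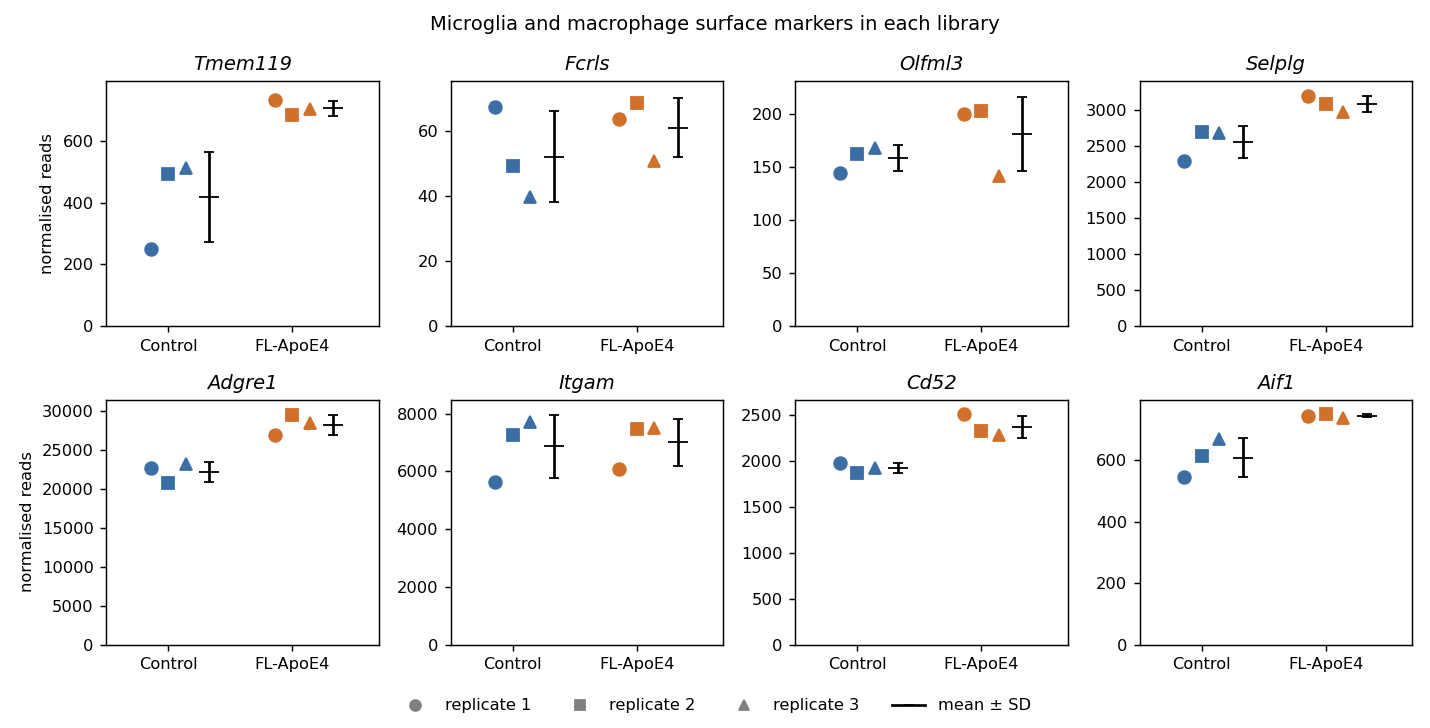
Normalised reads of the 8 measured members (vertical axis, from 0) in each library, with Control in blue, FL-ApoE4 in orange, a symbol for each replicate number and the mean ± SD (n = 3) in black. For Tmem119, Selplg, Adgre1, Cd52 and Aif1 every FL-ApoE4 library lies above every Control library, and control replicate 1 is the lowest library for Tmem119 at 251 normalised reads.

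The transcripts of 5 members were at higher levels in every FL-ApoE4 library than in any control, and the other 3 overlapped. Limma called 0 of the 8 measured members at an adjusted p under 0.05 with all 6 libraries, and 0% of the 14079 genes tested (at an unadjusted p under 0.05 there were 1850, or 13.1%). With edgeR on the recovered reads the count was 0 as well (0%). Of the members, 5 had an unadjusted p under 0.05, all with a higher level under FL-ApoE4, where 6.81% of all genes tested did so in that direction. Groups that did not overlap, with FL-ApoE4 higher, were seen for 11.1% of all genes tested, and groups that did not overlap in either direction for 21.9%. The median log2 fold change was 0.28 over the 8 measured members and 0.0011 over all genes, and 8 of 8 were above 0, as were 50.3% of all genes.

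Among the signature genes of resting microglia, Tmem119 had the largest difference of the members. It was at 251, 492 and 512 normalised reads in control replicates 1 to 3 and at 732, 684 and 702 in FL-ApoE4 replicates 1 to 3. The groups did not overlap, and control replicate 1 lay a log2 difference of 1.00 below the other controls. The log2 fold change was 0.82 ± 0.25 (SE), with a limma adjusted p of 0.242 that missed the threshold. Without control replicate 1 it was 0.49 ± 0.07, and Tmem119 rose at a limma adjusted p of 0.00813, where 4.62% of all genes were called and 2.93% were called higher. That fit holds 2 controls, which were the most alike of the controls, so its p-values may be too small.

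Selplg, whose protein lets leukocytes roll on selectins and which is a surface marker of microglia, was at 2292, 2690 and 2675 normalised reads in controls and at 3191, 3082 and 2966 with FL-ApoE4. The treated libraries all lay above the controls, of which replicate 1 was again the lowest. The log2 fold change was 0.27 ± 0.08 (limma adjusted p = 0.214), and 0.20 ± 0.05 without control replicate 1 (adjusted p = 0.0826). In the RefSeq gene order Selplg and Tmem119 lie close together on chromosome 5, and over the 6 libraries their log2 values had a Pearson r of 0.97, given as a description since the points share their libraries.

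The lowest members were measured from few reads. Fcrls was at 67.3, 49.3 and 39.6 normalised reads in controls and at 63.6, 68.6 and 50.9 with FL-ApoE4, from 42 to 74 reads a library, each with a counting error of 11.6% to 15.4%. The groups overlapped, and control replicate 1 was the highest control. The log2 fold change was 0.25 ± 0.23, with a 95% interval of -0.29 to 0.79. It was 0.45 ± 0.21 without control replicate 1 (limma adjusted p = 0.288), 0.07 without control replicate 3 and 0.16 without FL-ApoE4 replicate 2. Olfml3 was at 144, 162 and 168 normalised reads in controls and at 200, 203 and 141 with FL-ApoE4, so FL-ApoE4 replicate 3 lay below every control while the other treated libraries lay above them. The log2 fold change was 0.18 ± 0.16 (95% interval -0.20 to 0.56). It was 0.12 ± 0.17 without control replicate 1, 0.10 and 0.09 without FL-ApoE4 replicates 1 and 2, and 0.35 ± 0.13 without FL-ApoE4 replicate 3 (limma adjusted p = 0.448). A change of up to 1.72-fold for Fcrls or 1.48-fold for Olfml3 lies within these intervals.

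Among the macrophage markers, Adgre1 was at 22669, 20729 and 23180 normalised reads in controls and at 26882, 29416 and 28423 with FL-ApoE4. No control reached the lowest treated library, and control replicate 1 lay between the other controls. The fold was 1.27 (95% interval 1.15 to 1.40, limma adjusted p = 0.112), the lowest p of the members and rank 60 of all genes. Without control replicate 1 the log2 fold change was 0.36 ± 0.06 and Adgre1 rose at a limma adjusted p of 0.0144. The other adhesion receptors of the group were far lower, Adgre5 at 18.8 ± 5.13 and Adgre4 at 15.5 ± 7.54 normalised reads in controls (mean ± SD, n = 3), and neither passed the test.

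Cd52 was nearly level in the controls, at 1978, 1872 and 1926 normalised reads, and was at 2511, 2325 and 2281 with FL-ApoE4. All treated libraries lay above all controls by more than the spread in either group. The log2 fold change was 0.30 ± 0.06 (limma adjusted p = 0.136), and 0.32 ± 0.06 without control replicate 1, where Cd52 rose at an adjusted p of 0.024. Aif1 was at 545, 614 and 670 normalised reads in controls and at 746, 750 and 740 with FL-ApoE4. The treated libraries were nearly level and the controls spread below them. Its log2 fold change was 0.29 ± 0.09 (limma adjusted p = 0.236), and 0.22 ± 0.07 without control replicate 1 (adjusted p = 0.143).

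Itgam was at 5623, 7260 and 7716 normalised reads in controls and at 6074, 7462 and 7490 with FL-ApoE4. The groups overlapped throughout, and replicate 1 was the lowest library of each, by a log2 difference of 0.41 in controls and 0.30 in treated libraries below the other replicates. The fold was 1.03 with a 95% interval of 0.83 to 1.27 (limma adjusted p = 0.945), and without control replicate 1 the log2 fold change was -0.10. Adgre1 exceeded Itgam within each library by a log2 difference of 2.01, 1.51 and 1.59 in controls and of 2.15, 1.98 and 1.92 in treated libraries. This difference between the markers did not separate the groups (two-sided exact permutation p = 0.3, where 3 against 3 cannot go below 0.1).

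**Figure D2:**
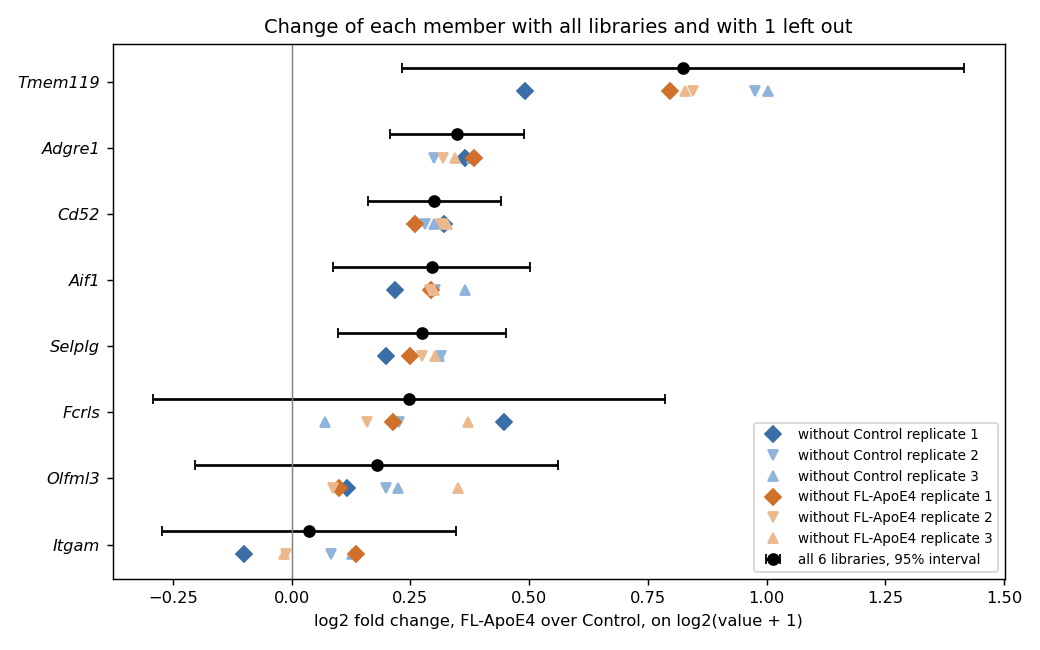
Log2 fold change of each measured member, FL-ApoE4 over Control, on the log2(value + 1) scale (horizontal axis), with all 6 libraries (black, 95% interval from limma) and with each library left out in turn (coloured symbols). Tmem119 goes from 0.82 to 0.49 without control replicate 1, and Itgam lies on both sides of 0.

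In the authors' deposited table Adgre1, Tmem119 and Cd52 are called, with log2 fold changes of 0.35 (adjusted p = 0.000673), 0.75 (adjusted p = 0.0367) and 0.30 (adjusted p = 0.00694), where 2.85% of the 12897 genes with an adjusted p in the authors' deposited table are called and 1.51% are called higher. The authors' deposited table gives adjusted p-values of 0.0777 for Selplg, 0.141 for Aif1, 0.825 for Olfml3, 0.893 for Fcrls and 0.986 for Itgam. DESeq2 run on the recovered reads repeated the authors' test, with the same log2 fold change and unadjusted p-value for each measured member, so it is not a separate test. It called the same 3 members (Adgre1, Tmem119 and Cd52), where it called 3.11% of 12491 genes and 1.66% higher. The tests therefore differ on these 3 genes, for which limma and edgeR made no call with all 6 libraries.

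Partner genes of the members were counted from fixed lists, as were the markers that follow. Shares over all genes stand beside the counts of each list. With all libraries limma had 6.81% higher at an unadjusted p under 0.05. Without control replicate 1 it called 2.93% higher, and DESeq2 with all libraries called 1.66% higher. CD11b pairs with the beta chain of Itgb2, which had control values of 7621 ± 261 and FL-ApoE4 values of 8816 ± 452 normalised reads (SD, n = 3 each), and its log2 fold change was 0.21 ± 0.06 (adjusted p by limma = 0.205). Itgal, the alpha chain of LFA-1 that shares this partner, was at 9320, 7045 and 7365 in controls and at 9539, 11439 and 10344 with FL-ApoE4. These groups did not overlap, and without control replicate 1 Itgal rose by 0.53 on the log2 scale (adjusted p by limma = 0.00598). Itgax, the CD11c chain, had a log2 fold change of 0.06 ± 0.09, and Itgad, the CD11d chain at 59.8 and 42.6 normalised reads, had -0.48 ± 0.17. The Itgad groups did not overlap either, with FL-ApoE4 lower, from 35 to 69 reads a library. Of the 5 integrin subunits limma called 0 with all libraries (3 at an unadjusted p under 0.05, 2 of them higher). DESeq2 called 1 (Itgal), and limma called 1 higher without control replicate 1.

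PSGL-1 must be fucosylated and branched before selectins bind it. Fut7, the fucosyltransferase that makes its selectin epitope in leukocytes, was at 178, 250 and 258 normalised reads in controls and at 365, 380 and 346 with FL-ApoE4. All treated libraries lay above all controls, with a difference of 0.68 ± 0.15 on the log2 scale (adjusted p by limma = 0.156). Without control replicate 1 Fut7 rose by 0.52 (adjusted p = 0.0171). Gcnt1, which builds the branched O-glycan core, differed by 0.49 ± 0.24 on the log2 scale, but by 0.18 once control replicate 1 was left out. Fut4, another fucosyltransferase, was listed at 0, and the selectin gene Selp stayed under 10 normalised reads on average. The selectin gene Sele had only 48, 13 and 7 reads in controls and 4, 6 and 5 with FL-ApoE4. From so few reads its log2 fold change was -1.56 ± 0.67, and -0.76 without control replicate 1. Limma called 0 of the 6 tested genes of this list with all libraries (2 at an unadjusted p under 0.05), DESeq2 called 1 (Fut7), and limma called 1 without control replicate 1.

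Among Fc receptor-like genes Fcrl5, a receptor known from B cells, was at 40.2, 32.2 and 32.0 normalised reads in controls and at 59.1, 65.8 and 55.8 with FL-ApoE4, from few reads. Its log2 fold change was 0.78 ± 0.17 (adjusted p by limma = 0.16), and it rose by 0.88 without control replicate 1 (adjusted p = 0.0339). Fcrla and Fcrlb had log2 fold changes of 0.17 ± 0.14 and 0.16 ± 0.25, and Fcrl6 stayed under 10 normalised reads. Limma called 0 of the 5 tested genes of this list with all libraries (1 at an unadjusted p under 0.05). DESeq2 called 0, and limma called 1 without control replicate 1. The other olfactomedin-like genes, Olfml1, Olfml2a and Olfml2b, and Aif1l, the relative of Aif1, also had means under 10 over all libraries.

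Gpr34, the receptor for lysophosphatidylserine that is abundant in microglia of the brain, was listed at 0 in all 6 libraries. So were the other genes of its P2Y12-like receptor group, among them Gpr82, P2ry12, P2ry13, P2ry14 and Gpr171. These lie wholly inside the span of another gene in RefSeq, Gpr34 and Gpr82 inside Cask and P2ry12, P2ry13, P2ry14 and Gpr171 inside Med12l, each on the strand opposite to its host. Of 878 protein-coding genes that lie wholly inside another listed gene, 860 (97.9%) were listed at 0 in all libraries, against 3828 of the 20830 others (18.4%). The share was 99.2% of 386 genes with hosts on the opposite strand and 99.4% of 161 with hosts on the same strand, among genes whose strands are known. B2m, which nearly all cells express, is among them, inside Patl2. The 0 of Gpr34, P2ry12 and P2ry13 therefore does not show that BV2 cells lack these transcripts, and whether the counting of reads set it was not tested. The spans of the other 8 members overlapped 0% with any listed gene.

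**Figure D3:**
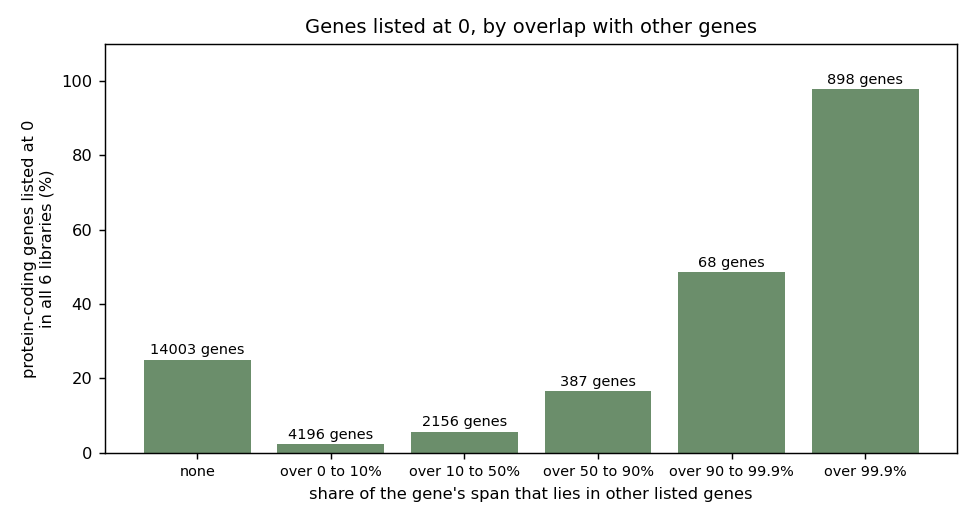
Share of protein-coding genes listed at 0 in all 6 libraries (vertical axis, %), by the share of the gene's span that lies in other listed genes (horizontal axis, RefSeq GRCm38.p6 spans). The number above each bar is the number of genes, and the share is 97.8% in the last class, which holds Gpr34, P2ry12 and P2ry13.

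Of the 35 genes fixed as the signature of resting microglia, 24 passed the filter and 11 did not. Among those 11 were P2ry12, P2ry13, Gpr34, Vsir, Sall1, Siglech, Slc2a5, Sparc, Crybb1 and Slco2b1. The first 4 lie inside other genes, Vsir, an immune checkpoint receptor, being inside Cdh23, and cannot be judged. The others named do not lie inside another gene, and these are identity markers that the line lacked or held near 0. Sall1, the transcription factor that keeps microglia from a macrophage state, was listed at 0, with 17.3% of its span overlapped. Siglech, a lectin of microglia and plasmacytoid dendritic cells, had control and FL-ApoE4 means of 3.46 and 4.18 normalised reads, and Slc2a5, the fructose transporter, of 8.75 and 3.41. The Slc2a5 groups did not overlap, with FL-ApoE4 lower, from 2 to 12 reads a library. Sparc, Crybb1 and Slco2b1 had means of at most 3.93 in controls and 2.66 with FL-ApoE4, and 60.3% of the span of Crybb1 and 37.6% of that of Slco2b1 were overlapped.

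The signature genes that were kept included Trem2, Tyrobp, Csf1r, Cst3 and the C1q chains, with C1qb, a complement subunit, at 6194 per kb in controls. Cx3cr1, the fractalkine receptor, stood low at 23.6 per kb in controls, next to Fcrls and Olfml3. Limma called 0 of the 24 tested genes with all libraries, 5 had an unadjusted p under 0.05, all higher, and the list's median log2 fold change was 0.05 (0.0011 over all genes). DESeq2 called 3 higher, Cx3cr1, Csf1r (0.22) and Tmem119. Without control replicate 1 limma called 2 higher, Cx3cr1 (1.20) and Tmem119, and 1 lower, Entpd1. Entpd1 encodes CD39, an enzyme that breaks down extracellular ATP, and was chosen for naming after its value was seen. It was at 960, 1287 and 1247 normalised reads in control replicates 1 to 3 and at 969, 1000 and 1049 with FL-ApoE4. With all libraries its groups thus overlapped, control replicate 1 lying below every treated library (limma adjusted p = 0.516).

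**Figure D4:**
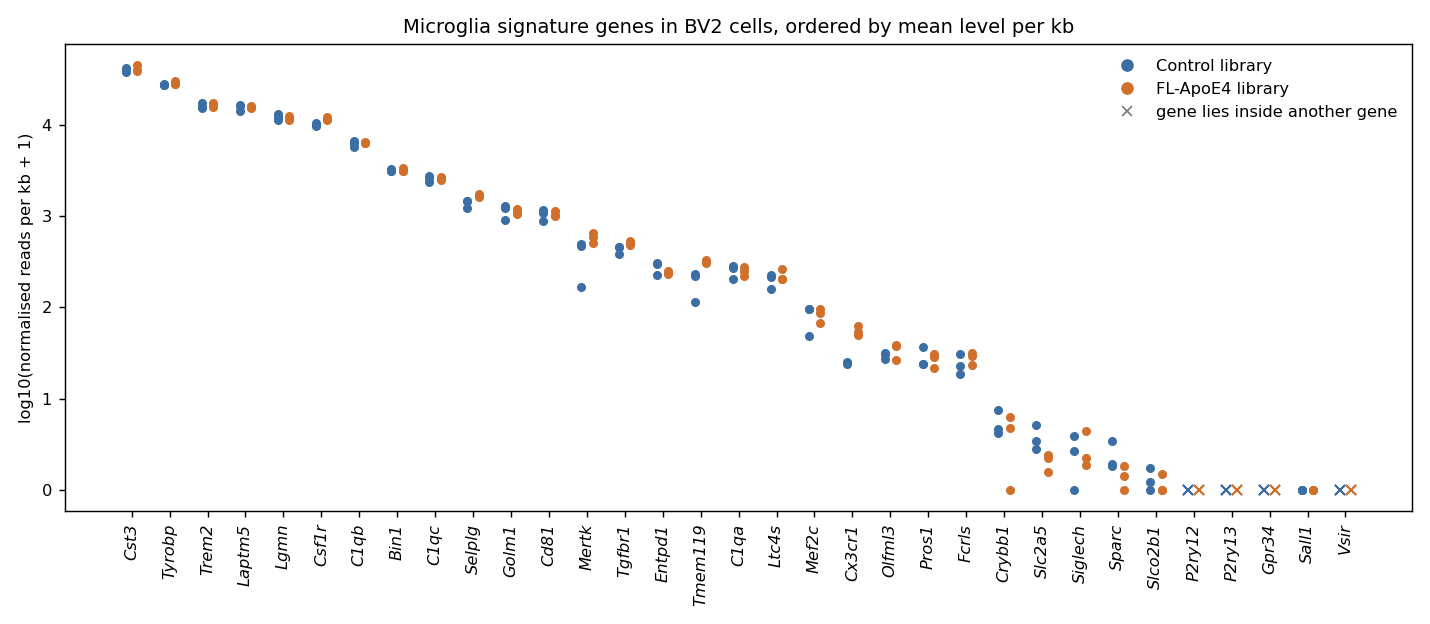
Level of genes of the resting microglia signature in each library, as log10(normalised reads per kb of the longest coding transcript + 1), ordered by mean level, with Control in blue and FL-ApoE4 in orange. Crosses are genes that lie inside another gene, all of them listed at 0, and Tmem119, Cx3cr1, Olfml3 and Fcrls sit in the lower part of the genes that passed the filter.

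Of 19 macrophage and pan-myeloid surface markers, 18 passed the filter. Cd163, the haemoglobin scavenger receptor, was listed at 0, with 37% of its span overlapped. The median log2 fold change was 0.19 (0.0011 over all genes), with 5 genes at an unadjusted p under 0.05, all higher (6.81% of all genes). Of these, Adgre1, Cd52 and Aif1 are members, and Csf1r is in the microglia list too, so the counts are not separate from those above. Limma called 0 with all libraries. DESeq2 called 3 higher, Adgre1, Cd52 and Csf1r (1.66% of all genes). Without control replicate 1 limma called 4 higher (Adgre1, Cd52, Marco and Ptprc, against 2.93% of all genes) and 0 lower. Marco and Ptprc were at 1133 and 15402 normalised reads in the control left out, within the range of the treated libraries. With all libraries the groups of both overlapped (limma adjusted p = 0.407 for Marco and 0.416 for Ptprc). Cd14, the lipopolysaccharide co-receptor, stood at 22129 in control replicate 1, against 9604 to 11957 normalised reads in the other 5 libraries. Marco, Ptprc and Cd14 were chosen for naming after their values were seen.

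Markers of other brain and border cells were used to check the label. Among border macrophage genes Pf4 and Mrc1 were at 5418 ± 597 and 2988 ± 359 normalised reads in controls (SD, n = 3), whereas Lyve1 stayed under 10 and Cd163 and Cd209f were listed at 0. Ms4a7, another of this list, differed by 0.30 ± 0.07 on the log2 scale (limma adjusted p = 0.175) and was called by DESeq2, and Siglec1, F13a1 and Clec4n differed by 0.29 ± 0.18, 0.15 ± 0.30 and -0.06 ± 0.15. Of 7 monocyte markers Ly6c2, Ccr2, Plac8 and Chil3 were among those with a mean under 10 over all libraries, and Itga4 and Spn were not. Itga4 stood high, at 24457, 19249 and 20175 normalised reads in control replicates 1 to 3, and Spn was at 443, 422 and 441. Ccr2 had means of 6.39 in controls and 13.1 with FL-ApoE4, from 2 to 14 reads a library, and its groups did not overlap. Spn, which encodes the sialomucin CD43, differed by 0.30 ± 0.07 on the log2 scale (limma adjusted p = 0.187), while Itga4 differed by 0.20 ± 0.14. The neutrophil and mast cell markers (6 of 6, S100a8, S100a9, Ly6g, Mpo, Cpa3 and Mcpt4) had means under 10 over all libraries. So did the fibroblast markers (4 of 4, Col1a1, Col3a1, Dcn and Lum). The same held for Cd3e, Cd3d, Cd8a, Ms4a1 and Ncr1 among 8 lymphocyte markers, of which Cd4 and Cd79a passed. S100a8 had means of 11.7 in controls and 3.00 with FL-ApoE4, from 2 to 16 reads a library, and its groups did not overlap. Ms4a1 lies wholly inside another gene and cannot be judged.

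The summed neuron markers were at 85.4 to 88.6 normalised reads in controls and 62.1 to 80.3 with FL-ApoE4, with Rbfox3, Snap25, Map2, Gad1 and Slc17a7 under 10. Summed astrocyte markers were at 90.1 to 138 and 95.9 to 100.8, with Gfap, Aldh1l1 and S100b under a mean of 10 and Aqp4 at 0. Oligodendrocyte lineage markers were at 1153 to 1250 and 1215 to 1300, nearly all of it Mbp, a gene with transcripts outside myelin too, while Mog, Mag, Pdgfra, Cspg4 and Olig2 stayed under 10. Of the endothelial and mural markers Cldn5 and Rgs5 stayed under 10, and Vwf was at 1208 ± 162 in controls. Cdh5 of the same list had a mean under 10 over all libraries. Its means were 6.32 in controls and 12.01 with FL-ApoE4, from 4 to 14 reads a library, and its groups did not overlap. Limma called 0 genes of these lists of other cells, with all libraries or without control replicate 1, and Ms4a7 and Spn were the ones at an unadjusted p under 0.05. The lists were thus mixed: Mog and Cldn5 were at or near 0, while Mbp and Vwf of the same lists stood above 1000 normalised reads. Aqp4 was listed at 0 with 66.5% of its span overlapped.

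Transcription factors that set myeloid and microglial identity were counted beside the members. Of 12, 11 passed the filter and Sall1 was listed at 0. With all libraries 4 had an unadjusted p under 0.05 with a higher level and 1, Cebpb, with a lower level, and limma called 0 (DESeq2 called 3, Irf8 and Maf among them). Maf, a factor of macrophage differentiation, was at 925, 1580 and 1632 normalised reads in controls and at 2416, 2421 and 2153 with FL-ApoE4, so control replicate 1 was the lowest library, as it was for Tmem119. Without it 5 factors rose and 0 fell, among them Maf (0.53), Irf8 (0.32), Runx1 (0.26) and Spi1 (0.38), each a log2 fold change by limma. Cebpb and Spi1 were chosen for naming after their values were seen. Spi1 was at 23018 in control replicate 1 and at 16307 and 15724 in the other controls, so with all libraries its value was 0.20 ± 0.14 (limma adjusted p = 0.592). Whether these factors have a part in the members' levels was not tested.

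The genes whose pattern over the 6 libraries was most like each member were found by Pearson r of log2 values among the 14079 genes. With so many genes and 6 points, very high values arise readily, and they are given as a description. For Adgre1 they were Myo15 (r = 0.996), Arid3a (0.994) and Coa5 (0.992), and for Tmem119 Pacc1 (0.999), Ccdc28b (0.997) and Rubcnl (0.997). For Selplg they were Cyp4f16, Cd22 and E330020D12Rik, and for Cd52 1500011B03Rik, Sptlc2 and Tmem176a. For Aif1 they were Zfp36l2, Samhd1 and Relt, and for Itgam Atm, Ninl and Rfx7. For the low members Fcrls they were Tcp11l1, Gm40723 and Mmp9, and for Olfml3 Cmah, Gm12502 and Slc22a15. Among the members themselves the highest r were 0.97 for Tmem119 with Selplg, 0.96 for Tmem119 with Aif1 and 0.96 for Selplg with Aif1. Adgre1 was nearest to Cd52 (0.88), and Itgam and Fcrls ran against each other (-0.64).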

How the data were processed

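Total RNA was sequenced from 6 samples with a directional kit, per the labels' protocols. The submitters' processing notes name GRCm39 and the tools DESeq2 1.30.1, HTSeq, HISAT2 2.2.1 and FastQC 0.11.8, with settings, strand included, not given in the sources used here. For every gene and library the deposited table gives a normalised signal. All values (100%, tolerance 0.01) were whole multiples of the smallest in their column, so read counts were recovered by division. The authors' deposited statistics give log2 fold changes and p-values.

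Because the values are normalised, limma 3.58.1 (R 4.3.3, variance trend, two-sided) was run on log2(value + 1) for the 14079 genes with a mean of at least 10, with Benjamini-Hochberg adjustment over all of them at 0.05. Fold changes are on that scale, which understates low genes. Alternatives, edgeR 4.0.16 and DESeq2 1.42.0 on recovered reads among them, are given at the end. Samples with the same replicate number deviated together at 0.13, 0.07 and -0.03 (correlation over genes), and samples with different numbers at -0.16 to 0.165. Each deviation is taken from the mean of its own small group, so these values cannot decide whether the numbers pair the samples. The labels do not say that they do, and a replicate block is among the alternatives.

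Gene spans for overlaps came from RefSeq GRCm38.p6, where 38726 of the names (96.3%) were found. That build is not the authors', so it was used for relations between genes only. Every member is named, and from each list the genes under a mean of 10 and up to 4 of lowest p. Members and lists were chosen with earlier results of these data known. Some genes of the lists are not reported here.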

Additional observations from a re-analysis of the deposited data

How the results depend on the processing

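With all 6 libraries limma called 0 genes and 0 members. Leaving out 1 library gave 0 to 651 genes and 0 to 3 members, the highest values without control replicate 1 (Adgre1, Cd52 and Tmem119), and 1 gene was called without FL-ApoE4 replicate 2. No filter beyond a mean above 0 gave 1 gene. DESeq2 called 388 genes and 3 members. Chosen after seeing the data, edgeR without control replicate 1 called 691 genes and 3 members, DESeq2 without it 902 and 4, limma without replicate 1 of both groups 1767 and 4, and array quality weights 1551 and 5. For these counts the cause was not tested beyond the libraries named. The replicate block gave 0 genes (2177 at an unadjusted p under 0.05, against 1850 without it) and 0 members, so it changed no call. Pseudocounts, the stricter filter, scalings and the fit without a variance trend also gave 0. Log2 fold changes of 7 members stayed above 0 in all 21 alternatives, Tmem119 ranging from 0.46 to 1.00 and Adgre1 from 0.30 to 0.42. Itgam ranged up to 0.14 (without FL-ApoE4 replicate 1) and turned below 0 in 6, at -0.10 without control replicate 1, -0.01 and -0.02 without FL-ApoE4 replicates 2 and 3, -0.0918 by edgeR and -0.10 by DESeq2 without control replicate 1, and -0.0016 without replicate 1 of both groups. Fcrls ranged from 0.07 to 0.46 and Olfml3 from 0.04 to 0.35. Fcrls had a counting error of 11.6% to 15.4% and Olfml3 of 6.76% to 8.67% a library, and the Olfml3 treated libraries differed by more than that.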
